A study of Mus musculus with 8 samples.

Results

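The apoptosis genes described here are 8 genes that switch cell death on or off: the inhibitor of caspases Xiap, the caspases Casp1, Casp8 and Casp9, and the Bcl2 family genes Bax, Bak1, Bcl2 and Bcl2l1. They were chosen by gene symbol, and every probe set whose only symbol in the platform annotation was 1 of these was taken. This gave 23 of the 45037 probe sets tested and covered 7 of the 8 genes, with 7 probe sets for Xiap, 5 for Bcl2, 4 for Bcl2l1, 3 for Casp9, 2 for Bak1 and 1 each for Casp1 and Casp8. Bax had no probe set with 1 gene symbol in the annotation used and was not analysed here. Probe sets that carry several symbols were not searched for it.

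The series profiled total RNA of the mouse retina, freed of its pigment epithelium, on Affymetrix expression arrays. All animals were of the strain labelled BALB/c AJ and were killed at postnatal day 40. A wild-type group (wt/wt) had 3 arrays, a group heterozygous for the Nxnl1 null allele (ko/wt) had 2, and a group homozygous for it (ko/ko) had 3. Nxnl1 encodes a thioredoxin-like protein of photoreceptors known as rod-derived cone viability factor. The labels do not say whether arrays of 1 group came from separate animals, so p-values measure the spread between these arrays, which may be technical.

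Apoptosis runs through caspases, proteases that lie inactive in the cell until they are cleaved. In the mitochondrial route Bax and Bak1 open the outer membrane of mitochondria, Bcl2 and Bcl2l1 (Bcl-xL) hold them in check, and released cytochrome c activates Casp9 on the Apaf1 scaffold. Casp8 starts the route from death receptors, Casp1 processes interleukin 1 beta in inflammasomes, and Xiap binds and blocks active caspases. Much of this control acts on the proteins, which the arrays did not measure. Photoreceptors can die by such programmes, among others, in inherited retinal degeneration.

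Each probe set has 1 log2 expression value per array. Across the table they ran from 2.50 to 14.57, and 10% of the tested probe sets had a mean below 3.55. Probe sets have their own affinities, so a level is compared between arrays and not between probe sets. Because the RNA came from whole retina, fewer cells of a type and less RNA per cell cannot be told apart.

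Some arrays stood apart from their groups. Nxnl1 read 8.65 to 9.22 in wild type, 8.65 and 6.75 on heterozygous arrays 1 and 2, and 6.13, 8.76 and 6.13 on homozygous arrays 1, 2 and 3. The library labelled homozygous 2 was therefore at the wild-type level and the one labelled heterozygous 2 below it, and every direction below follows the labels. The actin control, as its 5' probe set minus its 3' one, is more negative where RNA is degraded and was -1.81, -1.04 and -0.80 across the wild-type arrays, -0.90 and -0.71 across the heterozygous ones and -1.74, -0.69 and -1.26 across the homozygous ones. The Y-linked gene Eif2s3y was at 3.46 and 3.32 in wild-type samples 1 and 2 and between 7.07 and 9.14 elsewhere, while Xist read at least 11.17 throughout. Rod markers lay near the top of the scale, with 4 of 6 listed genes measured and means of 13.67 to 14.48. The summed log2 levels of lens and pigment epithelium markers differed between arrays from 40.87 to 66.30 for 8 lens genes and from 60.96 to 66.86 for 7 pigment epithelium genes.

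The comparisons ask whether losing 1 or both copies of Nxnl1 shifts the RNA of the death machinery. No apoptosis gene differed between genotypes past the threshold. Nxnl1 itself did not pass either, at -1.91 (limma p 0.0308 unadjusted and 0.9999 adjusted) for homozygous minus wild type. For heterozygous minus wild type it was -1.21 (limma p 0.177 unadjusted and 0.9999 adjusted). The absence of calls therefore does not show that the RNA of the members was unchanged. Limma called 0 of the 23 probe sets at a Benjamini-Hochberg adjusted p under 0.05 in each of the 3 comparisons. The background was 0% of all 45037 probe sets in each, and the smallest adjusted p over the whole table was 0.9999 for homozygous minus wild type, 0.9999 for heterozygous minus wild type and 1 for homozygous minus heterozygous. At an unadjusted p under 0.05 there were 0 of 23 for homozygous minus wild type, where the background was 0.913%. There was 1 of 23, at Bcl2l1, for heterozygous minus wild type against a background of 1.15%, and 1 of 23, at Casp1, for homozygous minus heterozygous against 0.899%. Groups that did not overlap were found at 0 of 23 probe sets between homozygous and wild type, where 4.47% of all probe sets had them. They were found at 7 of 23 between heterozygous and wild type, against 14.2%, and at 5 of 23 between homozygous and heterozygous, against 12.4%.

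The direction of the differences was uneven. For homozygous minus wild type 4 of 23 probe sets (17.4%) were above 0, with a median log2 difference of -0.05, whereas 52.1% of all probe sets were above 0 with a median of 0.0054. For heterozygous minus wild type 5 of 23 (21.7%) were above 0, with a median of -0.10, whereas all probe sets had 50.6% and 0.0018. These comparisons share the wild-type arrays. Homozygous minus heterozygous had 13 of 23 (56.5%) above 0 with a median of 0.01, and all probe sets had 53.5% and 0.01. Probe sets of 1 gene can read the same RNA, and all 7 Xiap probe sets were among the 19 below 0, so these are not independent counts. The split also moved with single arrays. For homozygous minus wild type 12 of 23 were below 0 without homozygous array 3, 13 without homozygous array 1 and 13 without wild-type array 2. For heterozygous minus wild type, 18 below 0 became 14 without wild-type array 3 and 14 without heterozygous array 1. Counted by gene at the brightest probe set, 3 of 7 members were above 0 for homozygous and 1 of 7 for heterozygous minus wild type.

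**Figure D1:**
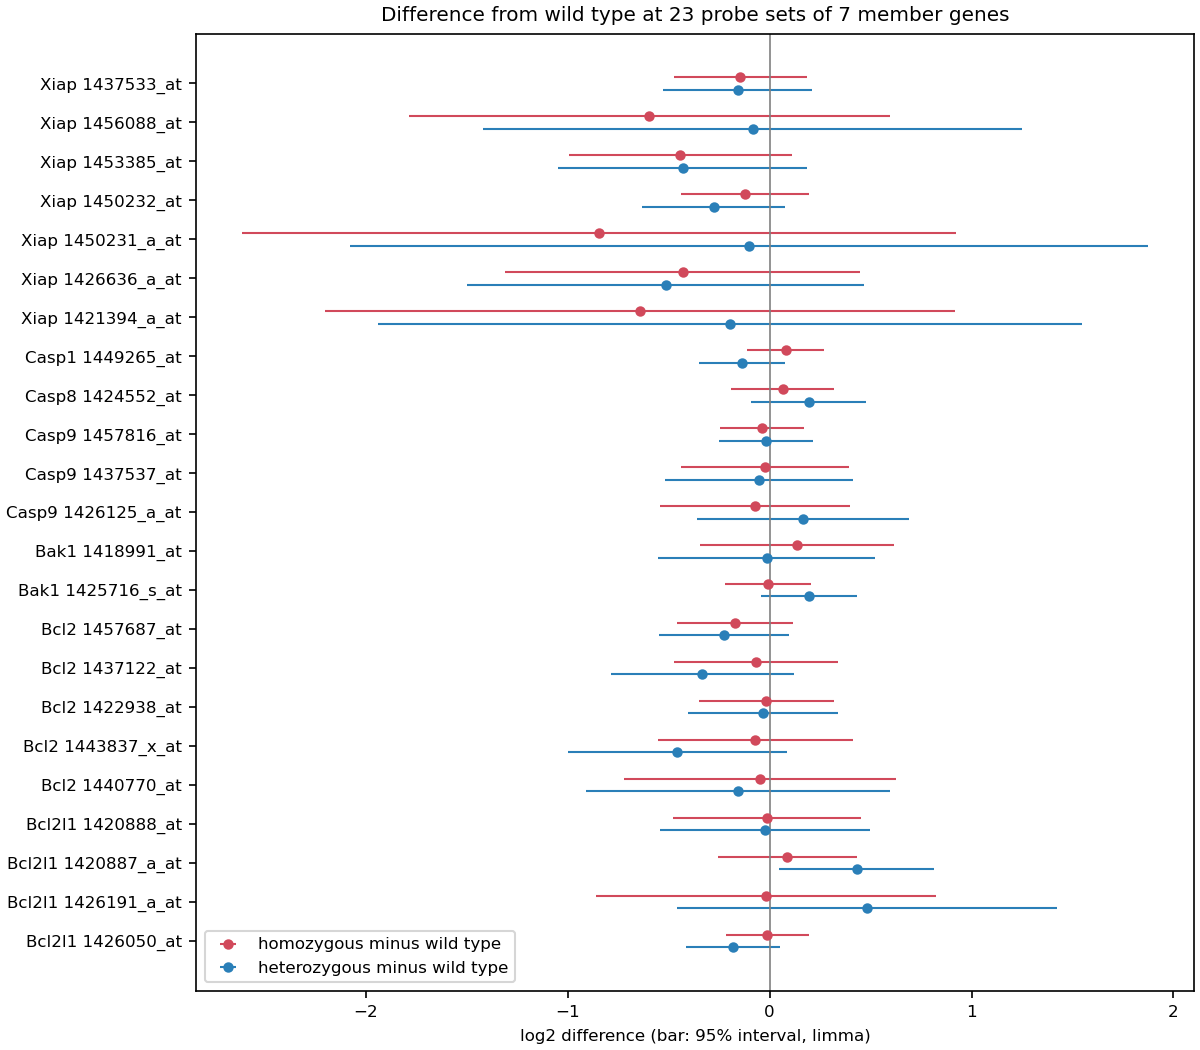
Log2 difference from wild type (x axis) for each of the 23 probe sets (y axis), in red for homozygous and in blue for heterozygous. Points are limma estimates and bars are 95% intervals, and the bars of 22 probe sets in blue and of all 23 in red cross 0, with Bcl2l1 1420887_a_at the exception.

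Xiap, on the X chromosome, has the most probe sets of the members and is described first. The brightest of its probe sets, 1437533_at, read 12.25, 12.49 and 12.45 across the wild-type arrays, 12.26 and 12.21 across the heterozygous ones and 11.99, 12.53 and 12.23 across the homozygous ones. The array labelled homozygous 2 had the highest value and homozygous array 1 the lowest, so the homozygous group spanned both others. The log2 difference of homozygous minus wild type was -0.15 (SE 0.14, 95% interval -0.47 to 0.18), and that of heterozygous minus wild type was -0.16 (SE 0.16). The homozygous difference was -0.015 without homozygous array 1 and -0.29 (limma p 0.0512 unadjusted and 0.943 adjusted) without the array labelled homozygous 2. With all Xiap probe sets averaged it was -0.46.

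A second probe set, 1453385_at, read 7.51, 7.70 and 7.22 across the wild-type arrays, 7.15 and 6.95 across the heterozygous ones and 6.63, 7.60 and 6.87 across the homozygous ones. The 3 lowest arrays were homozygous 1, homozygous 3 and heterozygous 2, as at 1437533_at but at no other Xiap probe set. They are also the 3 arrays where Nxnl1 was lowest, while the array labelled homozygous 2 lay within the wild-type range. Heterozygous array 1, where Nxnl1 read 8.65, lay below every wild-type array. The difference of homozygous minus wild type was -0.44 (SE 0.24, limma p 0.101 unadjusted), and that of heterozygous minus wild type was -0.43 (SE 0.27). Without the libraries labelled heterozygous 2 and homozygous 2 the homozygous difference was -0.73 (SE 0.17, limma p 0.006 unadjusted and 0.976 adjusted), and without homozygous array 1 it was -0.24.

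The probe sets 1456088_at, 1450231_a_at, 1426636_a_at and 1421394_a_at moved together over the arrays, with Pearson r between 0.89 and 0.987 for their pairs over 8 arrays. At 1456088_at the wild-type arrays read 8.99, 9.57 and 10.79, the heterozygous arrays 9.61 and 9.79, and the homozygous arrays 8.34, 10.10 and 9.12. At 1450231_a_at the wild-type arrays read 4.94, 5.78 and 7.54, the heterozygous arrays 5.75 and 6.22, and the homozygous arrays 4.37, 6.80 and 4.55. Wild-type array 3 and the array labelled homozygous 2 were the highest of all 4 probe sets and homozygous array 1 was the lowest, so within each of these groups the values differed by more than the group means did. At 1421394_a_at they ran from 3.77 on homozygous array 1 to 6.74 on wild-type array 3, and at 1426636_a_at from 4.46 to 6.19 on the same arrays.

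The differences of homozygous minus wild type at these 4 were -0.60 (SE 0.52), -0.85 (SE 0.77), -0.43 (SE 0.38) and -0.64 (SE 0.68), in the order named above, with unadjusted limma p between 0.285 and 0.371. The 95% intervals were wide, from -1.79 to 0.60 for 1456088_at and from -2.62 to 0.92 for 1450231_a_at. Single arrays moved these values. Without wild-type array 3 the differences at 1456088_at, 1450231_a_at and 1421394_a_at were -0.09, -0.12 and -0.03, and without the array labelled homozygous 2 they were -1.05, -1.63 and -1.30. At 1426636_a_at of Xiap the difference was -0.11 without wild-type array 3, -0.10 without homozygous array 1 and -0.83 without the array labelled homozygous 2. With the level of Eif2s3y as a covariate the first 3 were -1.46, -2.09 and -1.68, at unadjusted limma p of 0.00974, 0.0141 and 0.0272 and adjusted p of 0.722, 0.722 and 0.744, and 1426636_a_at was -1.03 (limma p 0.0182 unadjusted and 0.729 adjusted). These are 4 of 23 member probe sets at an unadjusted p under 0.05 in that fit, where 2973 of all 45037, or 6.6%, were. Eif2s3y read 3.46 and 3.32 on wild-type arrays 1 and 2 against 8.73 on wild-type array 3. The fit with this covariate therefore leans on wild-type array 3 and is not separate from the dependence on that array. With the actin control as covariate Xiap 1456088_at was -0.57 (SE 0.19, limma p 0.0147 unadjusted and 1 adjusted) for homozygous and -0.74 (SE 0.23, limma p 0.0105 unadjusted and 1 adjusted) for heterozygous minus wild type. In that fit 3 of 23 member probe sets had an unadjusted limma p under 0.05 for homozygous minus wild type, against 2.16% of all. For heterozygous minus wild type 7 of 23 had one, against 3.52% of all. The brightest Xiap probe set was among them, at -0.31 (SE 0.12, limma p 0.0287 unadjusted). No member passed after adjustment. Without wild-type array 3 the heterozygous minus wild type direction turned at 1456088_at, 1450231_a_at and 1421394_a_at. The values went from -0.08 to 0.42, from -0.10 to 0.63 and from -0.20 to 0.41.

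The remaining probe set, 1450232_at, read 6.50, 6.34 and 6.22 across the wild-type arrays, 5.93 and 6.22 across the heterozygous ones and 6.39, 6.004 and 6.30 across the homozygous ones. Its highest value was on wild-type array 1, where 1456088_at, 1450231_a_at and 1421394_a_at were low. At 1426636_a_at that array lay above both heterozygous arrays and homozygous arrays 1 and 3. The differences at 1450232_at were -0.12 (SE 0.14) for homozygous and -0.28 (SE 0.15) for heterozygous minus wild type. By the table, 1437533_at and 1456088_at were designed on 1 shared transcript record, and 1421394_a_at, 1450231_a_at and 1450232_at on another.

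**Figure D2:**
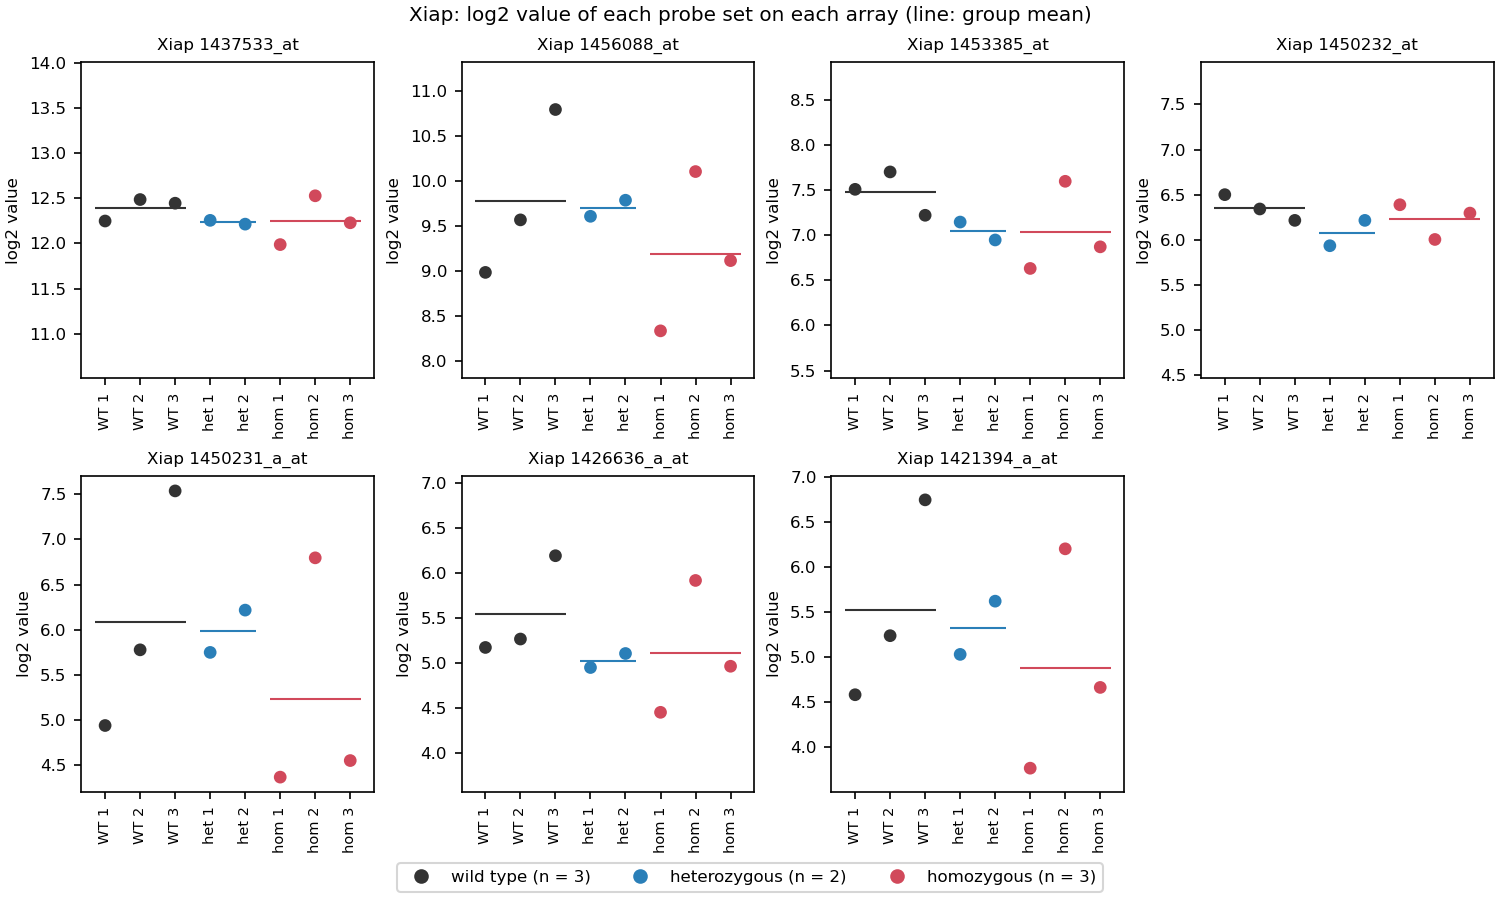
Log2 value of each Xiap probe set (y axis, panels of equal height centred on the data) on each of the 8 arrays (x axis). Points are arrays, black for wild type, blue for heterozygous and red for homozygous, and lines are group means: homozygous arrays 1 and 3 lie below the array labelled homozygous 2 in all panels but that of 1450232_at, where array 2 has the lowest value of its group.

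The starts of the Xiap transcripts are shown as a description, and their relation to the probe sets was not tested. RefSeq on GRCm38.p6 gave 3 windows of 300 bases for Xiap, all on the plus strand of chromosome X, most of each lying before an annotated start. Capitals mark the GC box GGGCGG or its reverse complement CCGCCC, found on either strand by exact match.
Xiap chrX:42068148-42068447: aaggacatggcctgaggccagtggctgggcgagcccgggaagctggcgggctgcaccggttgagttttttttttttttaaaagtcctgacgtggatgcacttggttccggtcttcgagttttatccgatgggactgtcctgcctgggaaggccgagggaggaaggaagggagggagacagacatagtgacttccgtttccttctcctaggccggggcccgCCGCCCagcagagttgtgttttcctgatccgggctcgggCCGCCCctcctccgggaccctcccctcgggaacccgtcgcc
Xiap chrX:42067586-42067885: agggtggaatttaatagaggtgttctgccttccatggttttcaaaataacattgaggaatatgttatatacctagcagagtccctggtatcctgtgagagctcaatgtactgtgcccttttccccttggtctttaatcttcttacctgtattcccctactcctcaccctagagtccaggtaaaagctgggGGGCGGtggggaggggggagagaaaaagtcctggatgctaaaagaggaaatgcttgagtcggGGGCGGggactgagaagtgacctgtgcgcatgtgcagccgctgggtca
Xiap chrX:42070992-42071291: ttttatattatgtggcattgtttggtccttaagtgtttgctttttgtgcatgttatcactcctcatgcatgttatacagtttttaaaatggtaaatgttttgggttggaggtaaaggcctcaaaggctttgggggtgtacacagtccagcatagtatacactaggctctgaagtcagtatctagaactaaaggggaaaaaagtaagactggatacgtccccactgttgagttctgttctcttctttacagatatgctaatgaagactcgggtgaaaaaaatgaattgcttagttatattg
They hold 2, 2 and 0 GC boxes and 20, 5 and 2 CG dinucleotides, and the third has 1 match to TATAAA or its reverse complement TTTATA, which shares no position with a GC box. Of 32851 such windows of all genes, 35.7% held a GC box and 13.6% the TATA letters, and the median number of CG dinucleotides was 7. The matches describe letters, and the arrays did not measure which start was used.

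Among the caspases, Casp9, the initiator of the mitochondrial route, was steady at its brightest probe set. There 1457816_at read 8.23 on each wild-type array, 8.23 and 8.20 across the heterozygous ones and 8.31, 8.20 and 8.08 across the homozygous ones. The whole range over 8 arrays was 0.23, and the difference of homozygous minus wild type was -0.04 (SE 0.09, 95% interval -0.24 to 0.17). For heterozygous minus wild type it was -0.02 (95% interval -0.25 to 0.21).

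The other Casp9 probe sets ran against each other. At 1437537_at the values were 8.19, 7.81 and 7.77 across the wild-type arrays, 7.93 and 7.81 across the heterozygous ones and 8.26, 7.62 and 7.82 across the homozygous ones. At 1426125_a_at they were 6.55, 6.87 and 7.30 across the wild-type arrays, 7.07 and 7.08 across the heterozygous ones and 6.58, 7.14 and 6.77 across the homozygous ones. Wild-type array 1 and homozygous array 1 were the highest arrays at the former and the lowest at the latter, and the correlation between both probe sets over 8 arrays was -0.814. Neither passed the test: for homozygous minus wild type the values were -0.02 (SE 0.18) and -0.07 (SE 0.20), and for heterozygous minus wild type -0.05 (SE 0.20) and 0.17 (SE 0.23), with unadjusted limma p of at least 0.487.

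RefSeq listed 1 start window for Casp9 on GRCm38.p6, on the plus strand, shown as a description beside those of Xiap.
Casp9 chr4:141793362-141793661: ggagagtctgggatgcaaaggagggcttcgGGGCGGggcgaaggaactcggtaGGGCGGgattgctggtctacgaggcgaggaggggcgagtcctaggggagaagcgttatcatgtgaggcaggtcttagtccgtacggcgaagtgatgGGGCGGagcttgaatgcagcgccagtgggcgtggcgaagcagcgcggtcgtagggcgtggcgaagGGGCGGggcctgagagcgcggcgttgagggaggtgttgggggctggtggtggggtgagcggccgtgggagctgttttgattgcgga
It holds 4 GC boxes, in capitals, and 28 CG dinucleotides, with no match to the TATA letters.

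Casp8, the initiator of the death receptor route, read 4.93, 5.05 and 5.18 across the wild-type arrays, 5.14 and 5.35 across the heterozygous ones and 5.17, 5.20 and 4.98 across the homozygous ones. The groups overlapped, and the array labelled heterozygous 2 was the highest. Its differences were 0.06 (SE 0.11) for homozygous and 0.19 (SE 0.12) for heterozygous minus wild type, with 95% intervals of -0.19 to 0.32 and -0.09 to 0.48.

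Casp1, the inflammasome protease, lay at the bottom of the scale on every array. It read 3.18, 3.14 and 3.14 across the wild-type arrays, 3.03 and 2.998 across the heterozygous ones and 3.30, 3.16 and 3.23 across the homozygous ones. The heterozygous arrays were below all others, and the homozygous arrays overlapped wild type. Homozygous minus heterozygous was 0.22 (SE 0.09, limma p 0.0456 unadjusted and 1 adjusted). A signal in this range cannot be told from an unexpressed transcript without detection calls, which were not used here.

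Bak1, an effector that opens the mitochondrial membrane, read 5.99, 5.59 and 5.19 across the wild-type arrays at 1418991_at, 5.64 and 5.51 across the heterozygous ones and 5.98, 5.44 and 5.75 across the homozygous ones. Wild-type arrays 1 and 3 held the highest and the lowest value of all 8, so wild type spanned the other groups. The difference of homozygous minus wild type was 0.14 (SE 0.21, 95% interval -0.35 to 0.62), and it was -0.06 without wild-type array 3 and 0.33 without wild-type array 1. Heterozygous minus wild type was -0.01 (SE 0.23).

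The dimmer Bak1 probe set 1425716_s_at, whose name ending marks probes that also match other transcripts, read 3.92, 3.88 and 3.88 across the wild-type arrays, 4.16 and 4.01 across the heterozygous ones and 3.77, 3.97 and 3.91 across the homozygous ones. The heterozygous arrays were above all others. Heterozygous minus wild type was 0.19 (SE 0.10, limma p 0.0959 unadjusted), and homozygous minus heterozygous was -0.20 (SE 0.10).

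**Figure D3:**
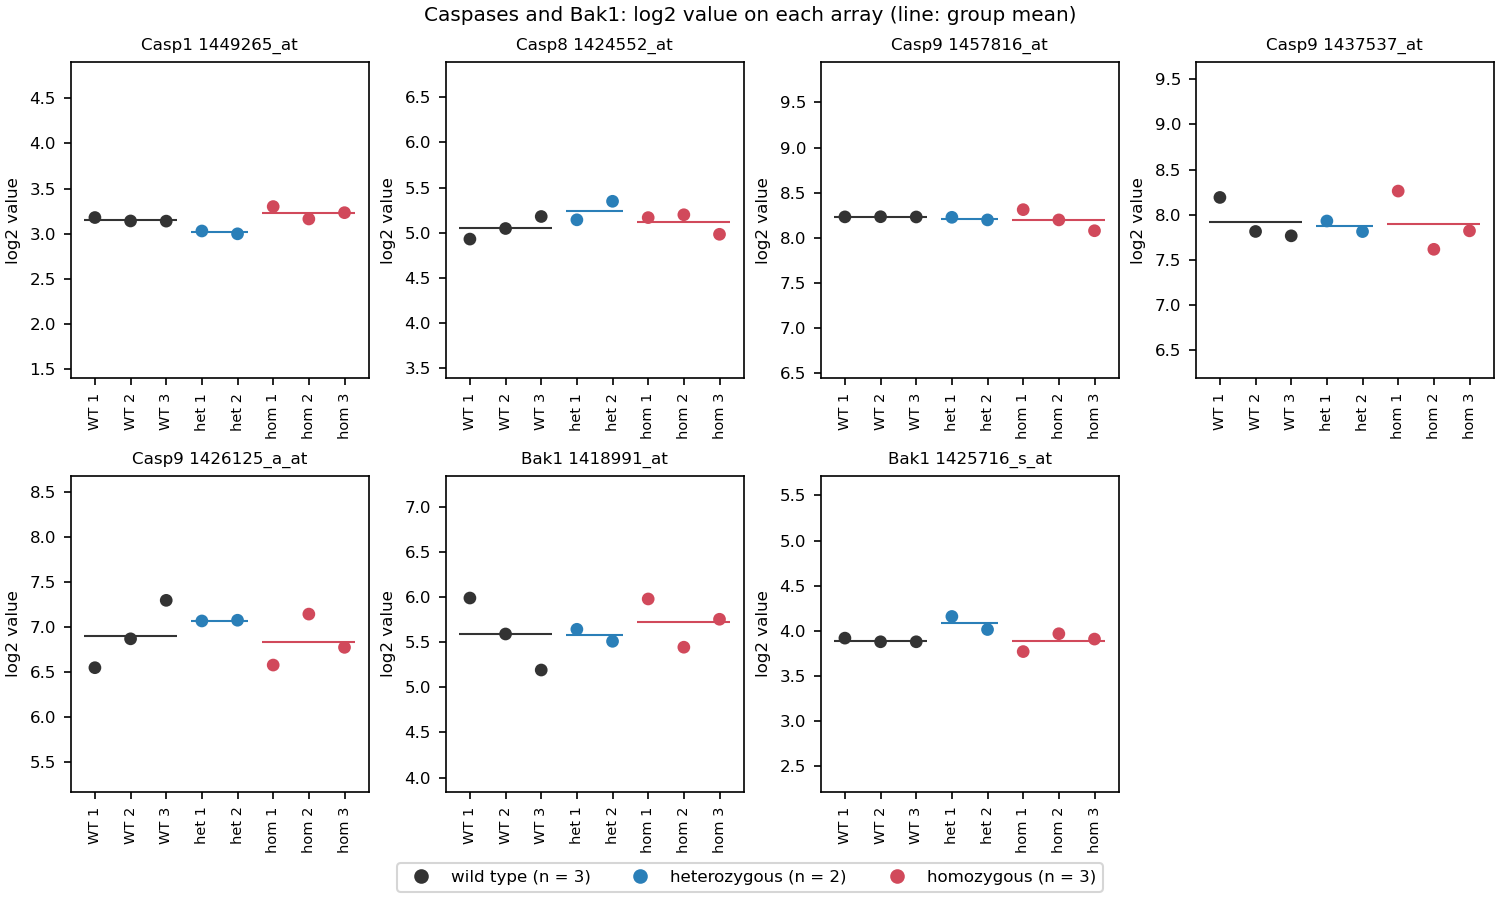
Log2 value of the probe sets of Casp1, Casp8, Casp9 and Bak1 (y axis, panels of equal height centred on the data) on each of the 8 arrays (x axis). Points are arrays coloured by genotype and lines are group means, and the means of Casp9 1457816_at lie within 0.04 of wild type.

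Bcl2, the founding anti-apoptotic member of its family, had 5 probe sets, all below wild type in both mutant groups by their means and none past an unadjusted p under 0.05. Its brightest, 1457687_at, read 7.63, 7.58 and 7.23 across the wild-type arrays, 7.31 and 7.20 across the heterozygous ones and 7.20, 7.36 and 7.37 across the homozygous ones. Wild-type arrays 1 and 2 were the highest, while wild-type array 3 lay among the mutant arrays. The differences were -0.17 (SE 0.13) for homozygous and -0.23 (SE 0.14) for heterozygous minus wild type. Without wild-type array 3 they were -0.30 (limma p 0.0255 unadjusted and 1 adjusted) and -0.35 (limma p 0.018 unadjusted and 0.9998 adjusted). With any 1 array left out the homozygous difference ran from -0.30 to -0.10.

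The array labelled heterozygous 2 was the lowest at 3 of the 5 Bcl2 probe sets. One of them, 1443837_x_at, whose ending marks probes that may hybridise to related sequences, read 6.37, 6.83 and 6.51 across the wild-type arrays, 6.40 and 5.82 across the heterozygous ones and 6.36, 6.86 and 6.28 across the homozygous ones. Its heterozygous minus wild type difference of -0.46 (SE 0.24, limma p 0.0873 unadjusted) was -0.17 without the array labelled heterozygous 2. At 1437122_at wild type read 6.83, 7.06 and 6.33, the heterozygous arrays 6.54 and 6.27, and the homozygous arrays 6.69, 6.68 and 6.64, and heterozygous minus wild type was -0.33 (SE 0.20). The homozygous arrays were all above both heterozygous arrays there, with a difference of 0.27 (SE 0.20).

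The remaining Bcl2 probe sets, 1422938_at and 1440770_at, ran from 6.25 to 6.72 and from 5.08 to 6.22 over the arrays, and both were lowest on homozygous array 1 and highest on the array labelled homozygous 2. Their differences of homozygous minus wild type were -0.02 (SE 0.14) and -0.05 (SE 0.29), and of heterozygous minus wild type -0.03 (SE 0.16) and -0.16 (SE 0.33). With 1 array left out the homozygous difference reached 0.08 at 1422938_at, 0.21 at 1440770_at, 0.09 at 1437122_at and 0.06 at 1443837_x_at, so the direction held at 1457687_at alone of the 5.

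Bcl2l1, which encodes the anti-apoptotic Bcl-xL, gave the single member probe set with an unadjusted p under 0.05 against wild type. At 1420887_a_at wild type read 6.91, 7.40 and 7.46, the heterozygous arrays 7.65 and 7.72, and the homozygous arrays 7.31, 7.46 and 7.26. Both heterozygous arrays were above all others, and wild-type array 1 was the lowest. Heterozygous minus wild type was 0.43 (SE 0.17, 95% interval 0.05 to 0.82, limma p 0.0323 unadjusted and 0.9999 adjusted), and homozygous minus wild type was 0.09 (SE 0.15). The heterozygous difference was 0.26 without wild-type array 1 and 0.28 (SE 0.13, limma p 0.0553 unadjusted) when the actin control entered as covariate.

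The brightest Bcl2l1 probe set did not share that difference. At 1420888_at wild type read 9.59, 9.22 and 9.02, the heterozygous arrays 9.27 and 9.24, and the homozygous arrays 9.67, 8.95 and 9.17. The groups overlapped, and the differences were -0.01 (SE 0.20) for homozygous and -0.02 (SE 0.23) for heterozygous minus wild type. Its values ran against those of 1426191_a_at, with a Pearson r of -0.804 over 8 arrays.

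At 1426191_a_at wild type read 5.31, 6.34 and 6.77, the heterozygous arrays 6.38 and 6.87, and the homozygous arrays 5.72, 6.56 and 6.09. Wild-type array 1 and homozygous array 1 were the lowest here and the highest at 1420888_at. Heterozygous minus wild type was 0.48 (SE 0.41), 0.07 without wild-type array 1 and 0.02 when the actin control entered as covariate. The dimmest, 1426050_at, read 3.75, 3.86 and 3.88 across the wild-type arrays, 3.69 and 3.60 across the heterozygous ones and 3.79, 3.91 and 3.75 across the homozygous ones, and heterozygous minus wild type was -0.18 (SE 0.10).

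**Figure D4:**
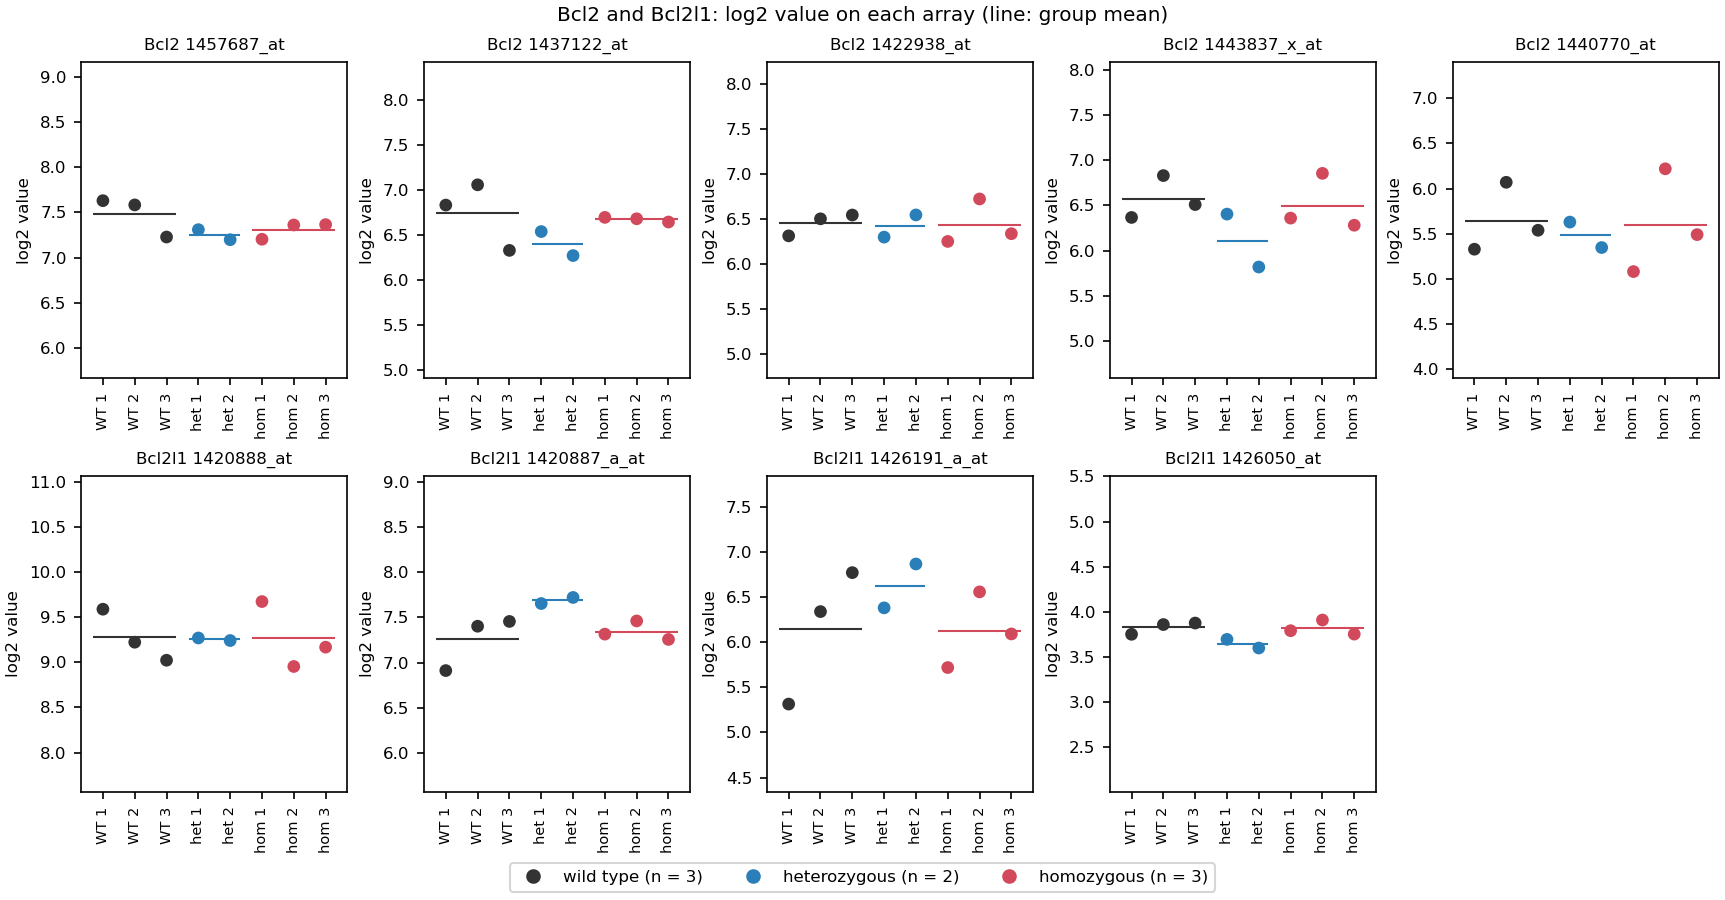
Log2 value of the 5 Bcl2 and 4 Bcl2l1 probe sets (y axis, panels of equal height centred on the data) on each of the 8 arrays (x axis). Points are arrays coloured by genotype and lines are group means: at Bcl2l1 1420887_a_at both heterozygous arrays, 7.65 and 7.72, lie above the others.

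The opposed probe sets of Casp9 and Bcl2l1 were compared with the actin difference, since wild-type array 1 and homozygous array 1 had the lowest values of it. Over 8 arrays and 23 probe sets, 9 relations passed by Pearson correlation after Benjamini-Hochberg adjustment of exact permutation p-values over the 23, 6 positive and 3 negative, and 11 passed by Spearman. An r at least as large in size as the smallest of those 9, 0.813, was found at 13.9% of all 45037 probe sets. No such share was computed for Spearman, so the count of 11 has no background beside it. The members at the extremes were Bcl2l1 1426191_a_at and Casp9 1426125_a_at, which were lower where the actin difference was more negative. Bcl2l1 1426191_a_at had r = 0.963 (exact permutation p 0.000198, adjusted p 0.00456) and rho = 0.929 (exact permutation p 0.00223, adjusted p 0.0257), and Casp9 1426125_a_at r = 0.941 (exact permutation p 0.00067, adjusted p 0.0077) and rho = 0.929 (exact permutation p 0.00223, adjusted p 0.0257). Bak1 1418991_at ran the other way with r = -0.894 (exact permutation p 0.00186, adjusted p 0.0143) and rho = -0.905 (exact permutation p 0.00456, adjusted p 0.0262).

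Without wild-type array 1 and homozygous array 1, the arrays farthest from the median of the actin difference, r was 0.887 for Bcl2l1 1426191_a_at, 0.841 for Casp9 1426125_a_at and -0.685 for Bak1 1418991_at. The sign was kept at 20 of the 23 probe sets. For Casp9 1437537_at it went from -0.900 to -0.436 and for Bcl2l1 1420888_at from -0.878 to -0.374, so these relations rested largely on those arrays. Xiap 1456088_at had r = 0.839 (exact permutation p 0.00561, adjusted p 0.0292) and rho = 0.905 (exact permutation p 0.00456, adjusted p 0.0262), and r was 0.704 without those arrays. Xiap 1453385_at had r = 0.241 (exact permutation p 0.547, adjusted p 0.6) and rho = 0.262 (exact permutation p 0.536, adjusted p 0.561). As deviations from the genotype means, the 9 had an r of 0.835 to 0.964 in size, each with the sign of the pooled value. That is given as a description, with 2 or 3 arrays a genotype.

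**Figure D5:**
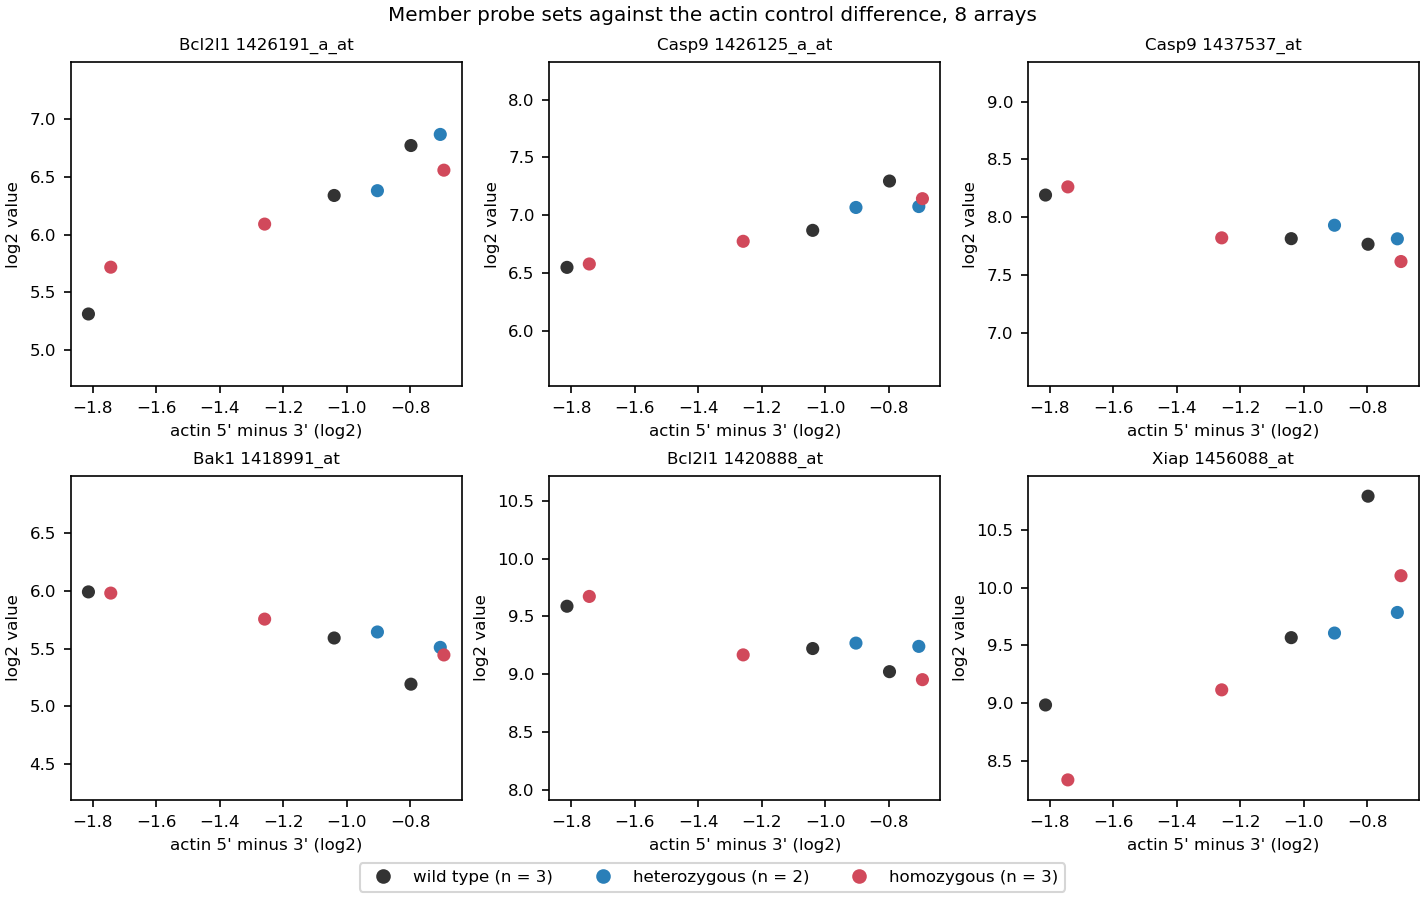
Log2 value of the 6 member probe sets of largest Pearson r in size (y axis) against the actin 5' minus 3' difference in log2 units (x axis), 1 point per array and coloured by genotype. Bcl2l1 1426191_a_at, Casp9 1426125_a_at and Xiap 1456088_at rise along the x axis, and Bak1 1418991_at, Casp9 1437537_at and Bcl2l1 1420888_at fall, with arrays of all 3 genotypes on the same course.

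Of the members, Bak1 and Bcl2l1 had a representative probe set (the one of highest mean) whose SD over the arrays was at least 0.2, and the 3 genes with the most similar course among 3508 such genes were listed for each. For Bak1 1418991_at these were Xab2 (r = 0.996 over 8 arrays), Zfp213 (0.994) and Gpr137 (0.987), and for Bcl2l1 1420888_at they were Trarg1 (0.988), Ncdn (0.985) and Pdzrn3 (0.985). The genes share arrays and RNA quality with the members, and the values are given as a description.

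The other genes of the pathway were measured for 53 of 64 listed genes, and none passed the test. For homozygous minus wild type 36 of the 53 were above 0, with a median log2 difference of 0.03. Over all 18193 genes 11007 were above 0, with a median of 0.02. At an unadjusted p under 0.05 there were 0 of 53, where all genes had 153, or 0.841%. For heterozygous minus wild type 27 of 53 were above 0 with a median of 0.0009, and 0 had an unadjusted p under 0.05. All genes had 8667 above 0, a median of -0.0067 and 213, or 1.17%, at an unadjusted p under 0.05.

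Within the mitochondrial route, BH3-only genes, whose products trigger Bax and Bak1 or block Bcl2, had 7 of 9 measured genes above 0 for homozygous minus wild type. Bmf, whose product is bound to the actin cytoskeleton in healthy cells, had the smallest p of all 53 at a log2 difference of -0.30 (SE 0.14, limma p 0.0618 unadjusted). Next by p within the BH3-only genes alone were Bik at 0.09 (SE 0.10) and Bid, which Casp8 cleaves, at 0.11 (SE 0.14). Of the other anti-apoptotic genes 3 of 3 measured were above 0, at 0.24 (SE 0.18) for Bcl2l10, 0.03 (SE 0.19) for Mcl1 and 0.0049 (SE 0.09) for Bcl2l2. The effector Bok differed by 0.02 (SE 0.12).

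The apoptosome and other factors released from mitochondria had 2 of 4 above 0, among them Apaf1, the scaffold of Casp9, at 0.03 (SE 0.16), and below 0 the nuclease Endog at -0.08 (SE 0.16) and cytochrome c, Cycs, at -0.04 (SE 0.16). Antagonists of Xiap had 3 of 4 above 0, with the mitochondrial protease Htra2 at 0.08 (SE 0.10), Diablo (Smac) at -0.06 (SE 0.08) and Septin4 at 0.07 (SE 0.10). Other inhibitors of apoptosis had 4 of 8 above 0, with Naip6 at -0.13 (SE 0.11), Birc3 at 0.13 (SE 0.12) and Naip5 at -0.10 (SE 0.10). Other caspases had 4 of 5 above 0, with Casp4 at 0.11 (SE 0.10), Casp6 at 0.08 (SE 0.10) and Casp2 at 0.04 (SE 0.09).

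On the death receptor side 5 of 9 measured genes were above 0, with the receptor Tnfrsf1a at 0.18 (SE 0.11), the ligand Tnfsf10 (TRAIL) at -0.15 (SE 0.10) and Fas ligand, Fasl, at 0.17 (SE 0.11). Around Casp1, inflammasome genes had 4 of 6 above 0, with the pore former Gsdmd at 0.17 (SE 0.10), Il18 at 0.08 (SE 0.09) and the sensor Nlrp3 at 0.05 (SE 0.09). The necroptosis genes Ripk3 and Mlkl differed by 0.11 (SE 0.10) and 0.06 (SE 0.10), and of the p53 axis Mdm2 by 0.17 (SE 0.10) and Cdkn1a by -0.04 (SE 0.16).

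Markers of microglia and macrophages, cells that express Casp1 and the inflammasome, had 10 of 11 genes above 0 for homozygous minus wild type, with a median of 0.13 and 1 at an unadjusted p under 0.05. Their summed log2 levels ran from 62.80 to 65.14 in wild type, from 63.82 to 67.65 in the heterozygous and from 64.30 to 67.83 in the homozygous group. The lowest mean was that of Itgam at 3.69, near the lower end of the scale. Vessel markers were above 0 at 6 of 6 genes, with a median of 0.24 and 1, Tie1 at 0.58 (limma p 0.00813 unadjusted and 0.9999 adjusted), at an unadjusted p under 0.05. Their sums were 32.58 to 32.94 across wild-type arrays, 32.84 to 34.02 across heterozygous and 33.61 to 35.51 across homozygous ones, so homozygous and wild-type arrays did not overlap. Lens markers had 7 of 8 genes above 0 with a median of 0.67, with sums from 42.19 to 58.65 in wild type and from 40.87 to 66.30 in the homozygous group. On the array labelled homozygous 2 the lens genes read 4.30 to 6.08. Pigment epithelium markers had 6 of 7 genes below 0 in heterozygous minus wild type, 4 of them at an unadjusted p under 0.05, with sums from 62.86 to 66.86 in wild type and 61.14 and 61.80 in the heterozygous group. In homozygous minus wild type 1 of the 7 was above 0, the median was -0.35 and 0 had such a p. The homozygous sums ran from 60.96 to 65.82. Over all 18193 genes 11007 were above 0 for homozygous minus wild type, and 0.841% had an unadjusted p under 0.05. In heterozygous minus wild type 1.17% of all genes had such a p. Single probe sets did not overlap between homozygous and wild type at 4.47% of all, and no such share was computed for sums. The part of microglia, vessels, lens and pigment epithelium in the values of the apoptosis genes was not tested.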

How the data were processed

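Total RNA of 8 retina samples was hybridised to Affymetrix arrays, 1 array per sample. The design text speaks of 9, and whether another array entered the normalization is not known here. The deposited values are log2 expression values that the authors made with RMA, per the submitters' processing notes, which corrects background, quantile normalizes and summarises probes. The sources used here give neither its version nor its settings. Quantile normalization makes each difference relative to the bulk of transcripts, and no detection calls were used here. The number of arrays limits the precision.

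Of 45101 rows, 64 control probe sets were left out and 45037 tested. By the platform annotation 34945 had 1 gene symbol, 932 several and 9160 none. Symbols were updated through gene identifiers for 34741. Probe sets with several symbols name no gene here. Promoter windows are RefSeq's on GRCm38.p6.

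Groups came from the genotype labels. One linear model over all 8 arrays (limma 3.58.1, R 4.3.3, eBayes, 5 residual degrees of freedom) gave 3 contrasts, with two-sided moderated p-values adjusted by the Benjamini-Hochberg method over all tested probe sets at a threshold of 0.05. SE is the moderated standard error. The relations with the actin difference used exact two-sided permutation tests (scipy 1.17.1). The steps were tested on simulated data.

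The 8 members, the gene lists and the alternatives were chosen with earlier results of these data known. All member probe sets are named. In each pathway list up to 3 genes of smallest unadjusted p for homozygous minus wild type are named, each by its probe set of highest mean. Alternatives changed the normalization, the filter on dim probe sets, the variance model, the arrays in the fit, covariates and the probe set that stands for a gene.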

Additional observations from a re-analysis of the deposited data

How the results depend on the processing

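Over 18 alternatives no member probe set reached an adjusted p under 0.05 in any of the 3 comparisons (405 values each), and the smallest was 0.722 for homozygous minus wild type, 0.9998 for heterozygous minus wild type and 0.876 for homozygous minus heterozygous. For the member genes 14 differences were followed, each at the brightest probe set of its gene. Of their 260 alternative values, 236 kept their direction and 24 turned, in 7 differences that were all under 0.14 in size. Larger differences turned at other member probe sets. For heterozygous minus wild type, Xiap 1421394_a_at (-0.20) turned in 3 of 17 alternatives and Casp9 1426125_a_at (0.17) in 4 of 18. The cause was not tested.

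Without the libraries labelled heterozygous 2 and homozygous 2, Bcl2l1 homozygous minus wild type was 0.14 and Bak1 heterozygous minus wild type 0.0522. With the actin covariate, heterozygous minus wild type was 0.0016 for Casp9, 0.24 for Bak1 and 0.22 for Bcl2l1. Without wild-type array 1 and homozygous array 1, Casp8 homozygous minus wild type was -0.0224, and heterozygous minus wild type was 0.19 for Bak1 and 0.13 for Bcl2l1. With the Eif2s3y covariate, homozygous minus wild type was -0.0065 for Casp8 and 0.23 for Bcl2l1, and heterozygous minus wild type 0.30 for Bak1 and 0.22 for Bcl2l1. With a gene's probe sets averaged, heterozygous minus wild type was 0.0316 for Casp9, 0.0902 for Bak1 and 0.18 for Bcl2l1, and Bcl2l1 homozygous minus wild type was 0.0112. With 1 array left out, homozygous minus wild type ran from -0.22 to 0.14 for Bcl2l1, from -0.0643 to 0.33 for Bak1 and from -0.0938 to 0.023 for Casp9, and heterozygous minus wild type from -0.15 to 0.13 for Bcl2l1 and from -0.21 to 0.19 for Bak1. Fits that left the heterozygous group with 1 array assume that it varies like the other groups.

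Over all probe sets the count called ran from 0 to 1 with 1 array left out, for homozygous and for heterozygous minus wild type. The 1 call came without wild-type array 3, at the unnamed probe set 1426438_at. It read 2.96, 2.90 and 9.24 in wild type and at least 8.84 on all mutant arrays, so it was low on the same 2 arrays as Eif2s3y. The replicate number as a block called 0 probe sets in each comparison. The deviations of same-numbered arrays correlated from -0.248 to 0.616, not all above 0.1, so the numbers were not taken as pairs. At 5 residual degrees of freedom the number of arrays, and near the lower end of the scale the signal over background, limits the precision.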
